A study of Mus musculus with 6 samples.

Results

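A set of 10 nuclear genes, for proteases and chaperones that fold, sort and degrade proteins inside mitochondria, was followed in mouse hearts lacking the splicing factor SRSF3 in cardiomyocytes. They are Lonp1, Clpp, Clpx, Afg3l2, Spg7, Parl, Htra2, Hspa9, Hspd1 and Hspe1, chosen by name and matched by symbol. All 10 were found among the 36558 genes of the abundance table, and 9 of them hold 267 of the 265079 listed splicing events. Hspe1 has no listed event. The cKO hearts are Srsf3Fl/Fl-βMHC-Cre, in which Cre, driven by Myh7 regulatory sequence, acts in cardiomyocytes already before birth, and the control hearts are Srsf3Fl/Fl. The labels give 3 hearts per group and no age, sex or strain. All hearts carry floxed Srsf3 and Cre is named for cKO hearts alone, so the deletion and the transgene cannot be told apart. Polyadenylated RNA of the hearts was sequenced with a stranded kit. Afg3l2 (chr18:67404764-67449172) and Hspa9 (chr18:34937414-34954357) lie on the minus strand of 1 chromosome (GRCm38), and the positions of the other members stand with their values.

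Most mitochondrial proteins are made in the cytosol, imported unfolded, and folded inside the organelle. HSPA9, the mitochondrial Hsp70, pulls them in, and the HSPD1 and HSPE1 chaperonin (Hsp60 and Hsp10) encloses them for folding. Proteins that misfold, lack a partner or are no longer needed are degraded by ATP-dependent proteases of the matrix and the inner membrane. Cells under mitochondrial stress can raise many of these genes together, a programme called the mitochondrial unfolded protein response. The heart is dense in mitochondria, and all 10 genes are expressed there.

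The values are the authors' comparison of the groups, with 1 fold change per gene and 1 inclusion level per event and group. No value per heart was used, so the spread between hearts enters through the standard error of each fold change. Depth per sample is unknown. Positive log2 fold changes are read as higher in cKO. The deposited table does not name the direction, and it was settled from splicing. Exons within 3 points of full inclusion lie closer to 100% in the group with more reads. Called genes with at least 3 such exons numbered 629, and in 596 of them (94.8%) the sign of the fold change matched this readout, after centring on all genes. Srsf3 had a log2 fold change of 0.02 (SE 0.07) per the authors' deposited table. This value sums all Srsf3 transcripts of all cell types, so by itself it does not check the deletion.

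Of the 10 genes, Lonp1 and Parl were higher in cKO hearts, by 23.4% and 26.6% from the log2 fold changes of the authors' deposited table. No gene was lower, and 8 did not pass an adjusted p of 0.05 (DESeq2 Wald test with Benjamini-Hochberg adjustment over 15929 genes, by the authors). At an unadjusted p under 0.05 the count was 3 higher, with Spg7 added, and 0 lower. Among all genes tested, 7.09% were called, 3.78% higher and 3.31% lower in cKO, and 19.2% had an unadjusted p under 0.05. The median log2 fold change of the 10 genes was -0.03, with 5 values positive and 5 negative, and that of all genes tested was 0.00. The 10 values did not share one sign. In heart tissue, fewer cells of a type and less RNA per cell cannot be told apart.

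**Figure D1:**
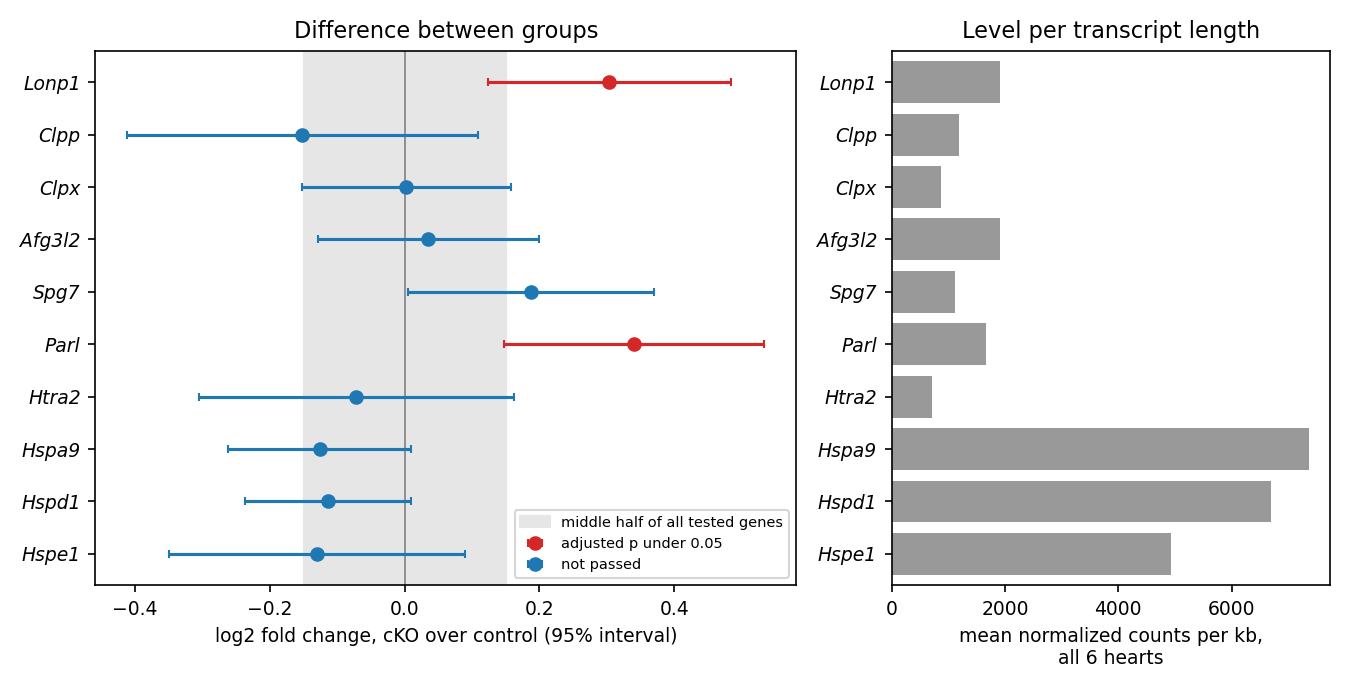
Left, log2 fold change of each gene, cKO over control, with its 95% interval, over the interquartile range of all tested genes in grey; right, mean normalized counts per kb of transcript over all 6 hearts. Lonp1 at 0.30, Parl at 0.34 and Spg7 at 0.19 stand right of the grey band, which runs from -0.15 to 0.15, and Clpp lies just left of it at -0.15; the 3 chaperones lie between -0.11 and -0.13.

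Among the matrix proteases, Lonp1 rose and the ClpXP pair did not pass. LONP1 is a ring-shaped ATP-dependent protease that degrades damaged and unassembled matrix proteins and TFAM, the packaging protein of mitochondrial DNA. Lonp1 (chr17:56614297-56626887, GRCm38, minus strand) had 5633 mean normalized counts and a log2 fold change of 0.30 (SE 0.09, adjusted p = 0.0211) per the authors' deposited table. The 95% interval of its difference ran from 8.96% to 39.9% higher in cKO. It was also in the authors' second list of 517 genes, headed kallisto and sleuth. The sequence upstream of its start is shown because Lonp1 is one of the members that passed. Capitals mark an E-box (CACGTG) and the core of a cyclic AMP response element (TGACGT), in the RefSeq promoter (chr17:56626904-56627153, GRCm38.p6, minus strand).
Lonp1 promoter: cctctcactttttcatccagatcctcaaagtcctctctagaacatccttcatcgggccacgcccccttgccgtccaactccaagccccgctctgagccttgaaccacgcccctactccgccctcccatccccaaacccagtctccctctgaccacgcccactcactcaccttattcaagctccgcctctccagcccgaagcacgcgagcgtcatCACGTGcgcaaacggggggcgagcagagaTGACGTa

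CLPP is a barrel-shaped peptidase, and CLPX is the unfoldase that feeds it. Clpp (chr17:56990305-56996188, plus strand) had a log2 fold change of -0.15 (SE 0.13, adjusted p = 0.598) per the authors' deposited table, with a 95% interval from -24.8% to 7.78%. For Clpx (chr9:65294260-65330658, plus strand) the value was 0.00 (SE 0.08, adjusted p = 0.993) per the authors' deposited table, with an interval from -10.0% to 11.5%. These intervals do not show that the genes were equal between the groups. They exclude a rise of the size estimated for Lonp1 in both cases. Whether Lonp1 differs from Clpp or Clpx in its response was not tested, since that needs values per heart.

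AFG3L2 and SPG7 (paraplegin) form the m-AAA protease of the inner membrane, which faces the matrix. It degrades unassembled respiratory chain subunits and matures the mitochondrial ribosomal protein MRPL32, and in humans its genes are mutated in forms of ataxia and spastic paraplegia. Spg7 (chr8:123062942-123097760, plus strand) had a log2 fold change of 0.19 (SE 0.09) per the authors' deposited table, with an unadjusted p of 0.0443 and an adjusted p of 0.243. A gene model named Gm20388 overlaps it on the same strand, with 590 mean normalized counts against 3224 for Spg7 per the authors' deposited table, so reads could be shared between them. Afg3l2 was at 0.04 (SE 0.08, adjusted p = 0.883) per the authors' deposited table. Per kb of its longest coding transcript, Afg3l2 had 1.72 times the mean normalized counts of Spg7.

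Of the proteases on the other side of the inner membrane and within it, Parl rose and Htra2 did not pass. PARL is a rhomboid protease that cuts within the membrane, and its substrates include the kinase PINK1, the phosphatase PGAM5 and the apoptosis factor encoded by Diablo. Parl (chr16:20279818-20302387, minus strand) had 2255 mean normalized counts and a log2 fold change of 0.34 (SE 0.10, adjusted p = 0.0143) per the authors' deposited table, with an interval from 10.7% to 44.8%. Unlike Lonp1 it was not in the sleuth list. Part of its upstream sequence is shown for the same reason as that of Lonp1 (RefSeq, chr16:20302396-20302612, GRCm38.p6, minus strand). The 217 bases stop short of the start, whereas those of Lonp1 run up to it. Capitals show a match to the heat shock letters GAANNTTC.
Parl promoter: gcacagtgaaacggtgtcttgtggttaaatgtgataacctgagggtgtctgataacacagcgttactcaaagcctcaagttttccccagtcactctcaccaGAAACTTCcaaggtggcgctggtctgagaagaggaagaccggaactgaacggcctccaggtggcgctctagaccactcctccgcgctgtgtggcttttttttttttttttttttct

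HTRA2 is a serine protease of the intermembrane space that can also bind the apoptosis inhibitor XIAP once released. Htra2 (chr6:83051266-83055273, minus strand) had 1242 mean normalized counts, and its log2 fold change was -0.07 (SE 0.12, adjusted p = 0.824) per the authors' deposited table. Per kb it was the lowest of the 10 genes, at 720 mean normalized counts per kb. Total Htra2 RNA thus did not pass the test, while its splicing differed more than that of any other member, as described below for exon 5.

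The 3 chaperones had like values, and none passed. Hspa9 was at -0.13 (SE 0.07, adjusted p = 0.313) per the authors' deposited table. Hspd1 (chr1:55077835-55088243, minus strand) was at -0.11 (SE 0.06, adjusted p = 0.315) and Hspe1 (chr1:55088132-55091307, plus strand) at -0.13 (SE 0.11, adjusted p = 0.594) per the authors' deposited table. Their 95% intervals reached at most 0.684%, 0.638% and 6.44% above control, so a rise as large as that estimated for Lonp1 lies outside each. They were the most abundant members per length, at 7363, 6694 and 4935 mean normalized counts per kb, against 720 to 1916 for the 7 proteases and subunits. Per kb, Hspd1 had 1.36 times the mean normalized counts of Hspe1. Processed copies of these genes had little signal: Hspd1-ps3 had 20.9 mean normalized counts per the authors' deposited table, and the other copies named after Hspd1, Hspe1 or Hspa9 at most 2.19.

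Hspd1 and Hspe1 lie head to head, and the annotated genes overlap by 112 bases at their 5′ ends. RefSeq starts are listed at 55087932 and 55088243 for Hspd1 and at 55088148 for Hspe1. From 55087932 to the Hspe1 start there are 215 bases between. Between those starts a run of 3 overlapping heat shock motifs is found. For the Hspd1 start at 55088243 the run lies downstream, inside the annotated gene. The outer matches have the form TTCNNGAA and the middle match the form GAANNTTC. The stretch is shown because the genes share it. Capitals mark the motif run (RefSeq, chr1:55088053-55088082, GRCm38.p6, plus strand, reading toward Hspe1).
Hspe1 heat shock motifs: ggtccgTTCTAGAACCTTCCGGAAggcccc

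Motifs were searched on both strands in windows of 250 bases before to 50 after the start, which 7 of the 10 genes have. The heat shock element was searched as GAANNTTC or as TTCNNGAA, which can overlap each other. Also searched were TGACGT for the cyclic AMP response element, CACGTG for the E-box, TGATGNAA for the composite site of CHOP and ATF4, and AAGGTCA for the monomer site of estrogen-related receptors. Of 32544 promoter windows, 7.89% hold GAANNTTC, 8.55% TTCNNGAA, 7.55% TGACGT, 7.17% CACGTG, 3.91% TGATGNAA and 4.71% AAGGTCA. Members with GAANNTTC were Hspd1, Hspe1 and Parl, and those with TTCNNGAA were Hspd1, Hspe1 and Clpp. CACGTG was found for Lonp1 and Hspd1, TGACGT for Lonp1, AAGGTCA for Hspd1 and Hspe1, and TGATGNAA for no member. The CACGTG of Hspd1 lies in the window of its start at 55088243. The window of the other Hspd1 start overlaps the window of Hspe1. The GAANNTTC, TTCNNGAA and AAGGTCA matches of Hspd1 and Hspe1 are therefore the same sites, read from either gene. Naming both genes for them does not add separate matches to compare with the shares of all windows. A match describes letters only.

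Splicing differences among the 10 genes centred on Htra2, with 1 exon of Clpx beside it. An event's minimum change is the difference in inclusion that the authors' vast-tools output places as exceeded with probability 0.95. No member event reached 10 points, a mark passed by 0.23% of all events. A minimum change above 0 was given for 7 of the 267 member events, of which 6 were in Htra2 and 1 in Clpx, against 2.22% of all events. By type, the share of all events with a minimum change above 0 was 2.8% of exons, 1.37% of introns, 2.4% of alternative acceptors and 2.97% of alternative donors. At least 5 points was reached by 2 member events, both in Htra2, and by 0.633% of all events. An absolute difference of 10 points or more, with no minimum, was found for 6 member events, all in Htra2, and for 2.46% of all events. As shares of the 267 member events, these counts of 7, 2 and 6 lie near the shares of all events. Outside Htra2 and Clpx, the largest absolute difference was 3.87 points, for an intron of Clpp retained at 3.34% in cKO and 7.21% in control. Lonp1 had 58 listed events and Spg7 had 52, each with a minimum change of 0 throughout. Retention of their introns reached at most 6.86% in cKO and 7.69% in control for Lonp1, and 6.94% in cKO and 7.67% in control for Spg7. Parl had 19 events, and its largest difference was an acceptor used at 96.8% in cKO and 94.7% in control. The widest difference in Lonp1 was an intron retained at 2.25% in cKO and 4.63% in control, and in Spg7 an exon included at 93.5% in cKO and 90.8% in control. Afg3l2 had an intron at 0.413% in cKO and 1.66% in control, and Hspa9 one at 0.438% in cKO and 1.19% in control. For Hspd1 a donor was used at 99.8% in cKO and 99.3% in control.

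**Figure D2:**
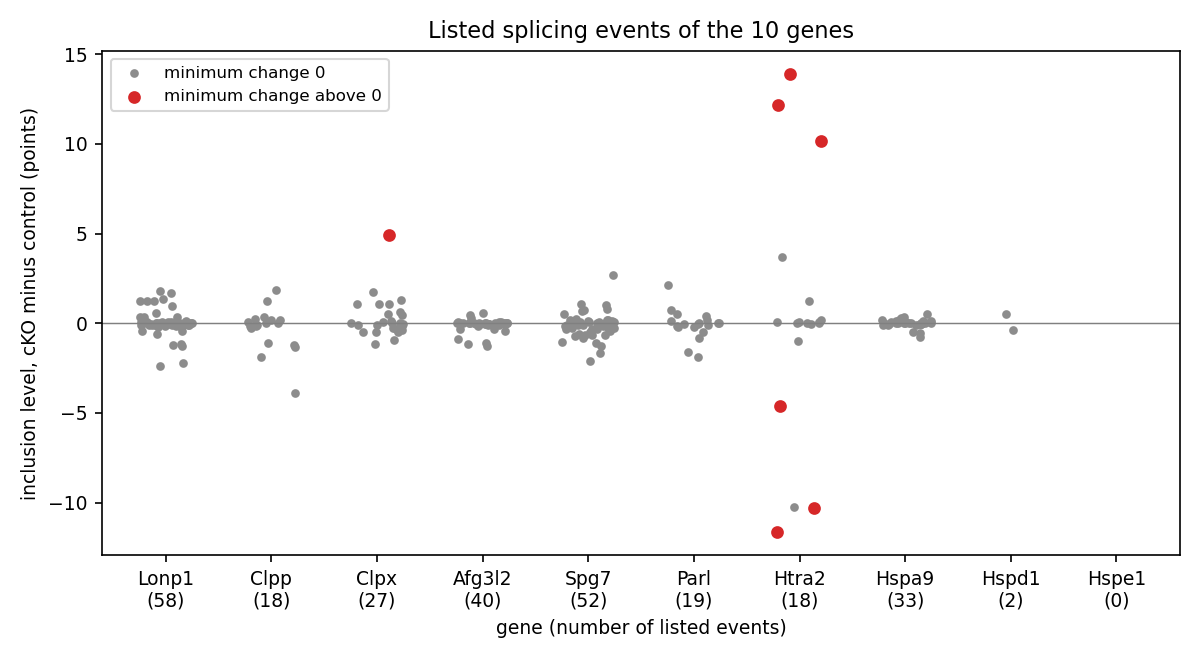
Each point is a listed splicing event of a gene, placed by its inclusion level in cKO minus control in percentage points; larger red points have a minimum change above 0. Events of 7 genes lie within 3.87 points of 0, Hspe1 has none, Clpx has 1 red point at 4.93 points, and Htra2 has 6, between -11.7 and 13.9 points.

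In Htra2, all differences of 10 points or more surround the joint of exon 4 and exon 5. The gene has 8 exons in its main GENCODE coding transcript, and all 6 listed exon events matched its exons by length and order. The mm9 coordinates of the events were not converted. Exon 4, intron 4 and exon 5 are printed from GENCODE M21 (GRCm38, chr6:83052698-83053070, minus strand; the intron from a transcript that keeps it) because the events that differ lie in them. Capitals in the intron mark the 37 bases added to exon 4 by a downstream donor. Those in exon 5 mark the 29 bases kept when a downstream acceptor is used, which leaves out 77 bases.
Htra2 exon 4: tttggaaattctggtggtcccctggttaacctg
Htra2 intron 4: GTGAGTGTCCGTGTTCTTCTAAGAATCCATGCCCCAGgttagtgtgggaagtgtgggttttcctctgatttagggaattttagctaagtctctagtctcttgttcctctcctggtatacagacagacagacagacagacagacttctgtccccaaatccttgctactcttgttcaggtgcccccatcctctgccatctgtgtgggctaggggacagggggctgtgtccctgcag
Htra2 exon 5: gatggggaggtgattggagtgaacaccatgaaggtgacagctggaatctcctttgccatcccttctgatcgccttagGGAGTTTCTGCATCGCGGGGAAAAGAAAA

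Exon 5, of 106 bases, had an inclusion level of 81.8% in cKO and 93.4% in control. The difference was -11.7 points, with a minimum change of 6 points. Intron 4, of 234 bases, was retained at 28.7% in cKO and 14.8% in control, also with a minimum change of 6 points. Minimum changes of at least 6 points were given for 0.641% of all exon events and 0.286% of all intron events. The downstream donor of exon 4 was used at 14.6% in cKO and 4.50% in control, with a minimum change of 3 points. Use of the downstream acceptor in exon 5 stood at 27.0% in cKO and 14.8% in control, with a minimum change of 1 point. The full-length acceptor stood at 72.6% in cKO and 82.8% in control, with a minimum change of 0. Every one of these values shows less joining of exon 4 to the full exon 5 in cKO. They are not independent, because the events share junctions and reads.

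**Figure D3:**
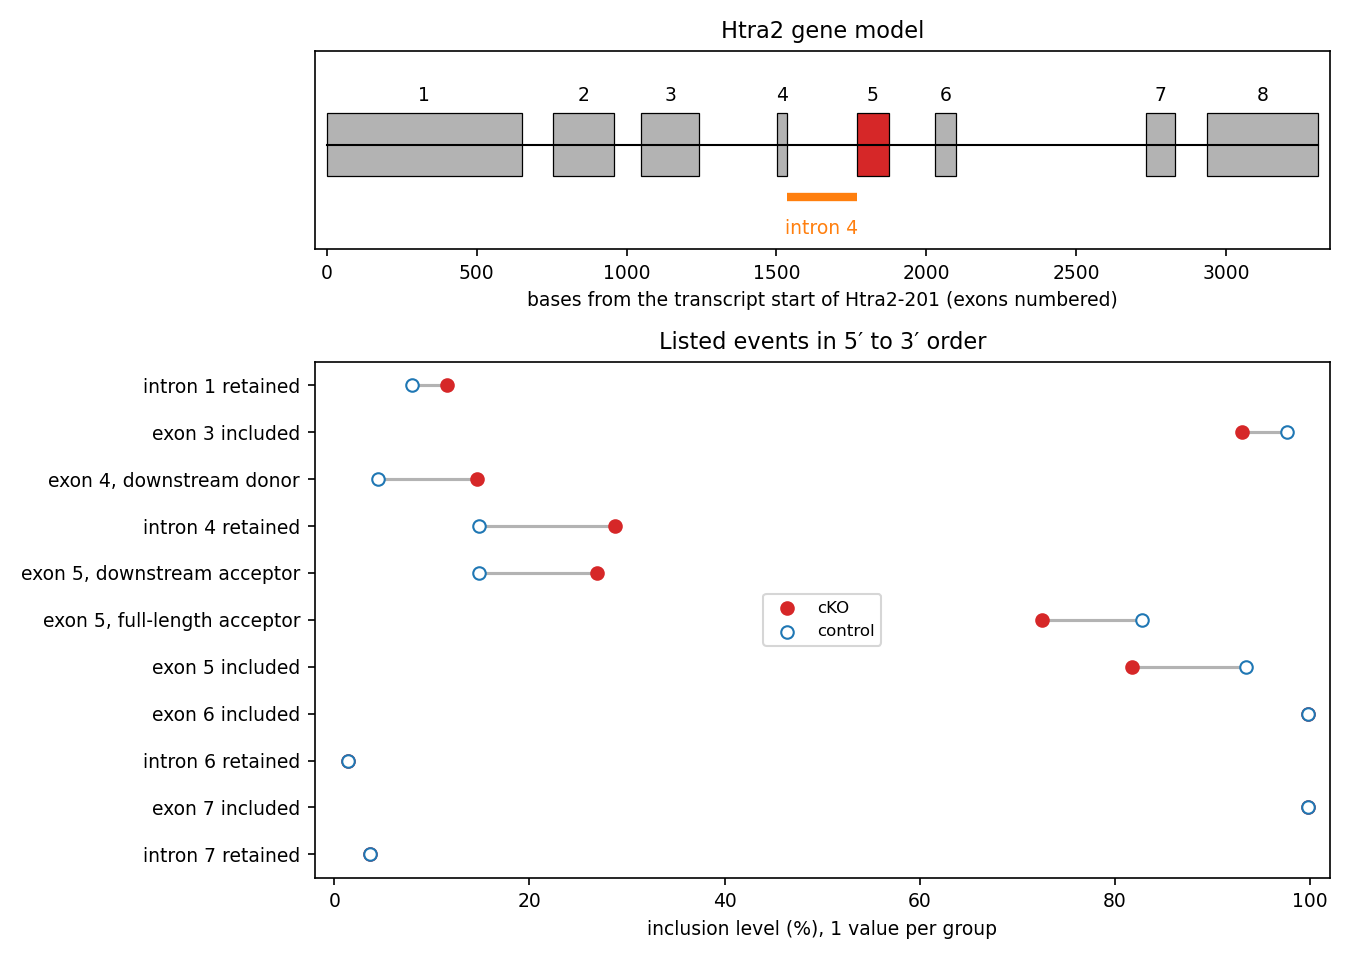
Top, exons 1 to 8 of Htra2 to scale from the transcript start, with exon 5 in red and intron 4 underlined; bottom, inclusion level of listed events in percent, with cKO filled and control open, 1 value per group. The groups part most at the downstream donor of exon 4, at intron 4 and at exon 5. They part less at exon 3 and intron 1, and lie on each other from exon 6 onward.

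The rest of Htra2 differed little. Exon 3, of 195 bases, was included at 93.1% in cKO and 97.7% in control, with a minimum change of 1 point. Intron 1 was retained at 11.6% in cKO and 7.92% in control, and intron 2 at 5.30% in cKO and 4.07% in control, with a minimum change of 0 in both. Exons 2, 4, 6 and 7 were included at over 99% in each group. Intron 6 was retained at 1.41% in cKO and 1.45% in control, and intron 7 at 3.68% in cKO and 3.64% in control.

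The altered forms of Htra2 carry different reading frames. Read in the frame of the coding transcript, retained intron 4 places a stop codon at its base 40. Skipping exon 5 removes 106 bases, which is no multiple of 3, and the first stop then begins 46 bases past exon 4. The downstream acceptor removes 77 bases and gives a stop at base 109 past exon 4, against base 436 in the full transcript. The downstream donor followed by exon 5 adds 37 bases and gives a stop at base 103. Combined with skipping of exon 5 it removes 69 bases, a multiple of 3, and reaches the same stop as the full transcript. GENCODE labels a transcript lacking exon 5 and another with the downstream acceptor as nonsense-mediated decay, and one with the downstream donor and exon 5 skipped as protein coding. Which of these forms made protein was not measured.

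Htra2 overlaps genes on the opposite strand, Loxl3 at its 3′ end and Aup1 at its 5′ end. Loxl3 ends at position 83052562 (GRCm38), short of exon 5, so the exons and intron that differ lie outside it. Loxl3 had a log2 fold change of 0.28 (SE 0.16, adjusted p = 0.329) and Aup1 of -0.05 (SE 0.10, adjusted p = 0.858) per the authors' deposited table.

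In Clpx the differing event is exon 6 of 14, a cassette exon of 42 bases, or 14 codons, that leaves the frame intact when skipped. It was included at 91.4% in cKO and 86.5% in control, a difference of 4.93 points with a minimum change of 1 point. A minimum change of at least 1 point was given for 2.8% of all exon events. The exon is printed because it is the only event outside Htra2 with a minimum change above 0 (GENCODE M21, chr9:65312098-65312139, GRCm38, plus strand).
Clpx exon 6: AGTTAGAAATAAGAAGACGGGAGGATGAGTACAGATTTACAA

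The depth readout from near-constitutive exons, expressed as log2 of cKO over control and centred on all genes, was set beside the fold changes of the members. It was 0.16 for Lonp1 over 15 exons, with single exons between -2.06 and 2.44, where the log2 fold change was 0.30 per the authors' deposited table. For Spg7 it was 0.21 over 14 exons and for Afg3l2 0.06 over 15. For Parl it was -0.87 over 5 exons, opposite in sign to the fold change of 0.34 per the authors' deposited table, with single exons between -1.73 and 0.60. Introns gave Parl -0.77 over 5 and Lonp1 -0.21 over 12. Parl was 1 of the 33 called genes of opposite sign among 629. The readout also stood at 2.03 for Clpx, whose fold change was 0.00 per the authors' deposited table, so single genes can lie far from their fold change. Htra2 stood at -0.12 over 4 exons, Clpp at -0.89 over 4 and Hspa9 at 1.75 over 5, and Hspd1 and Hspe1 had too few exons.

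Few genes that work with the 10 members passed, apart from the respiratory chain list described below. Pink1 passed as lower, and the cytosolic chaperones Hspb8 and Dnajb4 passed as higher. At an unadjusted p under 0.05 (DESeq2), lower genes outnumbered higher ones among other mitochondrial proteases, chaperones, import genes, and partners and substrates. Cytosolic chaperones and regulators of the mitochondrial unfolded protein response had more higher than lower. All of these lists were written with earlier results of the data known, and each is described by its counts and median. Over the 15929 genes tested, 3.78% were called higher and 3.31% lower by DESeq2, and the median was -0.004. At an unadjusted p under 0.05 (DESeq2), 1585 of them were higher and 1472 lower. The sleuth list holds 516 of them and the featureCounts list 105. Of 13 other mitochondrial proteases and peptidases, 0 passed, with 2 lower at an unadjusted p under 0.05 (DESeq2) and 0 in the sleuth and featureCounts lists. Their median was -0.06. The most abundant were the subunits of the processing peptidase that removes import signals, Pmpcb at -0.21 (SE 0.11) and Pmpca at 0.09 (SE 0.09) per the authors' deposited table. Of 15 other chaperones and cochaperones, 0 passed by DESeq2, with 1 higher and 3 lower at an unadjusted p under 0.05 and 0 in both other lists, and the median was -0.06. The prohibitins, scaffolds of the inner membrane, were at -0.07 (SE 0.08) for Phb2 and -0.03 (SE 0.09) for Phb per the authors' deposited table.

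The import machinery had 0 of 23 genes past the threshold by DESeq2, with 5 lower at an unadjusted p under 0.05, 0 in both other lists and a median of -0.06. Its most abundant members were the outer membrane assembly protein Samm50 at 0.01 (SE 0.08) and the inner membrane channel Timm23 at -0.02 (SE 0.09) per the authors' deposited table. Regulators tied to the mitochondrial unfolded protein response had 0 of 14 genes past the threshold by DESeq2, with 1 higher at an unadjusted p under 0.05 and 0 in both other lists. Their median was 0.01. The nuclear receptor Esrra stood at 0.17 (SE 0.07, adjusted p = 0.131) and Atf4 at -0.02 (SE 0.09) per the authors' deposited table. Atf5, a factor that can drive this response in mammals, stood at -0.17 (SE 0.10, adjusted p = 0.312) per the authors' deposited table and was named after its value was seen.

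Among partners and substrates, 1 of 13 genes fell and 0 rose, with a median of -0.05, and the authors' other lists hold 1 by sleuth and 0 by featureCounts. The gene that fell was Pink1, the kinase that PARL cleaves, at -0.36 (SE 0.10, adjusted p = 0.00601) per the authors' deposited table. Pink1 and Parl thus differed in opposite directions in the same comparison. At an unadjusted p under 0.05 (DESeq2) this list had 2 genes lower, Pink1 among them, and 0 higher. Of the other substrates of PARL, Pgam5 stood at -0.07 (SE 0.12) and Diablo at 0.10 (SE 0.09) per the authors' deposited table. Neither passed, and they are named only as substrates of PARL. Of 28 cytosolic chaperones, 2 rose and 0 fell, where 3.78% of all genes tested were called higher and 3.31% lower. Their median was 0.04, and the authors' other lists hold 1 by sleuth and 0 by featureCounts. Those that rose were the small heat shock protein Hspb8 at 0.49 (SE 0.12, adjusted p = 0.00285) and the Hsp40 protein Dnajb4 at 0.29 (SE 0.10, adjusted p = 0.0496) per the authors' deposited table.

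**Figure D4:**
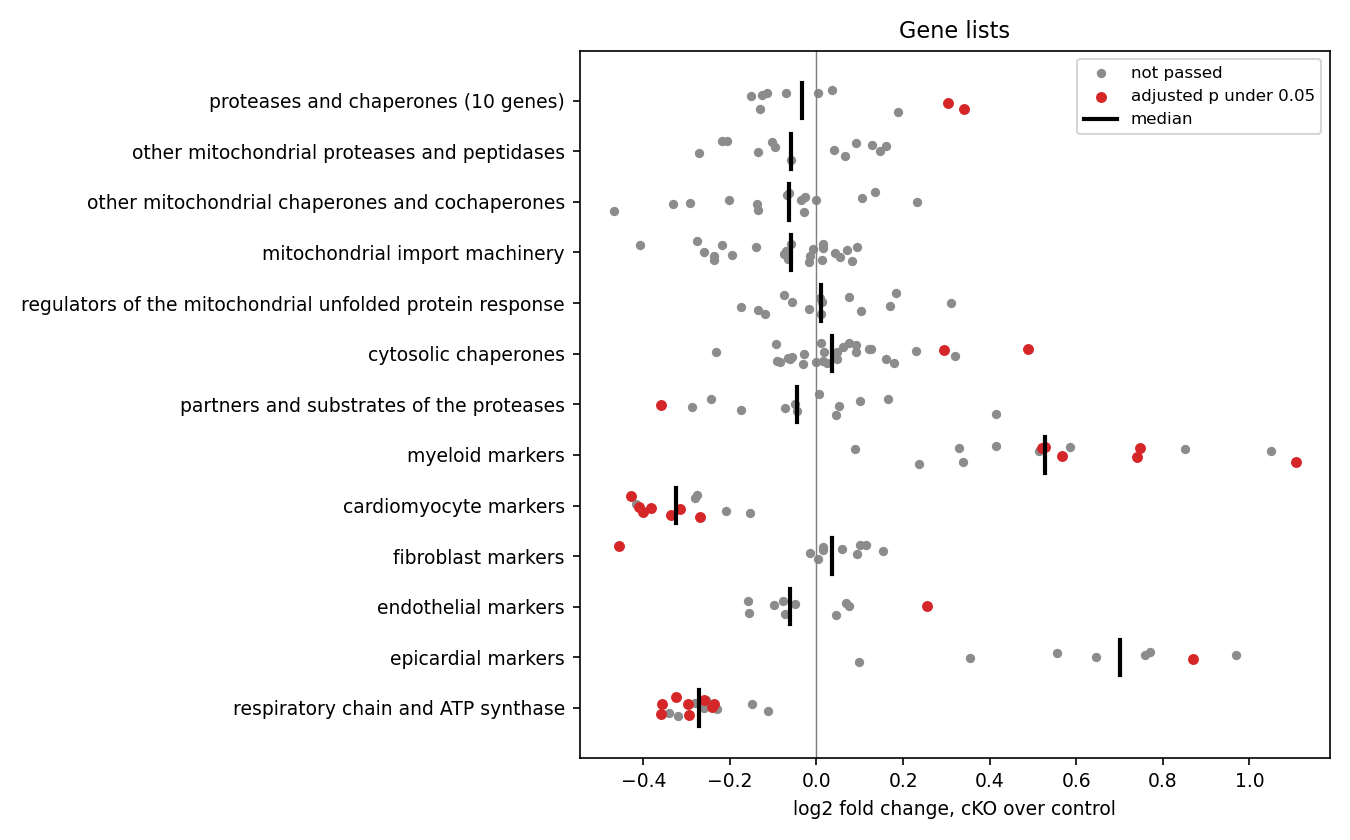
Each point is a gene's log2 fold change, cKO over control, in the list named at the left; red points passed an adjusted p of 0.05 and black bars are medians. The mitochondrial protease, chaperone and import lists have medians between -0.06 and -0.03, while the respiratory chain list sits at -0.27, cardiomyocyte markers at -0.33 and myeloid markers at 0.53.

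The respiratory chain and ATP synthase, whose subunits these proteases and chaperones handle, had 8 of 16 genes lower, 0 higher and a median of -0.27. By sleuth membership the count is 2, and by featureCounts membership 0. Of all genes tested, 3.31% were called lower and 3.78% higher by DESeq2. Atp5b stood at -0.36 (SE 0.10), Ndufs1 at -0.24 (SE 0.07), Cyc1 at -0.30 (SE 0.09) and Uqcrc1 at -0.29 (SE 0.09) per the authors' deposited table. The 3 chaperones had smaller negative values, and Lonp1 and Parl positive ones. These differences between genes were not tested.

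Cardiomyocyte, myeloid and epicardial markers moved with the groups, where 3.31% of all genes tested were called lower and 3.78% higher. Of 12 cardiomyocyte markers, 7 fell and 0 rose, with values from -0.43 to -0.15, and the authors' other lists hold 7 by sleuth and 0 by featureCounts. The sarcomere genes Myl3 at -0.41 (SE 0.09), Myl2 at -0.38 (SE 0.10), Actc1 at -0.40 (SE 0.11) and Tnni3 at -0.43 (SE 0.11) had the smallest adjusted p per the authors' deposited table. Of 15 myeloid markers, 6 rose and 0 fell, with values from 0.09 to 1.11, and the authors' other lists hold 2 by sleuth and 1 by featureCounts. The macrophage genes Lyz2 at 1.11 (SE 0.17), Csf1r at 0.53 (SE 0.12), Adgre1 at 0.75 (SE 0.18) and Cd68 at 0.74 (SE 0.19) led by adjusted p per the authors' deposited table. All 8 epicardial values were positive, with a median of 0.70, and Lrrn4 passed at 0.87 (SE 0.27) per the authors' deposited table, with 0 of the list called by sleuth and 1 by featureCounts. Summed over the markers, mean normalized counts over all 6 hearts were 2994000 for cardiomyocytes and 5576 for myeloid cells, and no marker gene was at 0. Of 10 fibroblast markers 1 fell and 0 rose, with a median of 0.04, and Thy1 was that gene at -0.46 (SE 0.13) per the authors' deposited table. Of 10 endothelial markers 1 rose and 0 fell, with a median of -0.06, and Vwf was that gene at 0.26 (SE 0.09) per the authors' deposited table. Neither list had a gene in the sleuth or featureCounts lists. The part of these shifts in the values of Lonp1 and Parl was not tested.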

How the data were processed

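RNA of 3 cKO and 3 control mouse hearts was extracted with Trizol and sequenced from polyadenylated RNA with a stranded kit, per the labels' protocols. Tools named by the submitters' processing notes are kallisto 0.46.0 for abundance, DESeq2 1.24.0 for the test, Trimmomatic 0.38 and FastQC 0.10.1, with builds GRCm38, mm9 and mm10. For the transcriptome release and the vast-tools version, nothing is given in the sources used here.

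Per the file headers, the authors deposited for each gene a mean normalized signal, a log2 fold change and its standard error, a Wald score, and a p-value with its adjusted value. Recomputing the Benjamini-Hochberg adjustment over 15929 genes gave the deposited adjusted p. Inclusion levels were deposited as a fraction per group, with a score for the minimum change, and are printed as percentages. The inclusion columns are headed Hom and HomCre and were read as control and cKO, since Cre is named in the cKO label alone. The deposited difference is control minus cKO and was turned to cKO minus control.

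The members, lists and motifs were chosen with earlier results of these data known. All members are named. In each other list the genes that passed are named, up to 4 by smallest adjusted p, or the 2 of highest mean where none passed. Pgam5, Diablo, Atf5 and the genes under Other observations are named outside this rule. Intervals are fold change ± 1.96 standard errors. Lengths, positions and symbols are from GENCODE M21, and 35856 IDs matched a symbol. No value per library was used, so the planned count test did not apply and depth and its precision are unknown. Python 3.11.15 was used, with the scripts tested on simulated data.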

Additional observations from a re-analysis of the deposited data

How the results depend on the processing

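No paired analysis was possible because the tables used here hold comparisons between groups and no values per library. For the same reason no fit without a library was run, so it is unknown whether 1 heart decides a value. With p-values adjusted over every gene with a p-value, or over genes with a mean of at least 100 only, Lonp1 and Parl were again the members called, at adjusted p of 0.0335 and 0.0228 in the first case and 0.0182 and 0.0124 in the second. Centring on the median of all genes changed no direction or call. By membership in the authors' sleuth list the number of members called higher was 1, Lonp1, and by the featureCounts list of 171 genes it was 0; the smallest absolute log2 fold change among genes shared by that list and the DESeq2 calls was 0.88. Members called lower numbered 0 under every one of these settings. Member events numbered 0 at a minimum change of 10 points, 2 at 5 points and 7 above 0. These marks are reached by 0.23%, 0.633% and 2.22% of all events. At an absolute difference of 10 points with no minimum they numbered 6 (2.46% of all events). The 2 and the 6 are all in Htra2. The share of called genes whose direction matched the splicing readout was 94.8%, 94.4% with a window of 5 points and 75.3% with introns. Group-level inclusion values carry no spread between hearts.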

Other observations

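The share of events with a minimum change above 0 was 2.22% over all events. It was 2.05% in the import list, 1.92% among regulators of the mitochondrial unfolded protein response, 1.52% among partners and substrates, 0.353% among cytosolic chaperones, 0.216% in the respiratory chain list and 0% among the 351 events of other mitochondrial proteases. The genes and events described next were named after their values were seen and do not stand for their lists. Bag3, a cochaperone of Hsp70 needed for protein quality control in cardiac muscle, had a pair of exons skipped in cKO. Its exon of 339 bases (chr7:135683487-135683825, mm9) was included at 58.5% in cKO and 99.2% in control, with a minimum change of 38 points. The exon of 402 bases (chr7:135685321-135685722, mm9) was included at 62.7% in cKO and 99.4% in control, with a minimum change of 34 points. Total Bag3 RNA was at 0.02 (SE 0.09) per the authors' deposited table.

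In the list of other mitochondrial chaperones, 10 of 209 events had a minimum change above 0, or 4.78%, against 2.22% of all events, and 2 reached 10 points. These events are not independent, since they include linked sites of the same donor choice in Bcs1l and in Dnajc19. Bcs1l, an assembly factor of complex III, included an exon of 393 bases at 78.9% in cKO and 97.8% in control, with a minimum change of 12 points. Dnajc19, a J protein of the import motor, used a donor giving an exon of 48 bases at 70.9% in cKO and 28.8% in control, with a minimum change of 10 points. The donor giving 56 bases stood at 29.7% in cKO and 69.3% in control. Hsf1, the heat shock transcription factor, included an exon of 270 bases at 86.8% in cKO and 99.8% in control.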
